A study of Mus musculus with 18 samples.

Results

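The 10 genes followed here belong to the transforming growth factor beta (TGF-beta) and bone morphogenetic protein (BMP) pathways, as ligand, receptors, inhibitors or transcriptional targets: Tgfb1, Tgfbr1, Tgfbr2, Smad6, Smad7, Skil, Pmepa1, Id1, Id2 and Id3. They were measured in RAW cells, an established line with macrophage character from the mouse, on 18 one-colour Affymetrix expression arrays. The genes were selected by name, with the intensities of these same arrays already known. They are covered by 21 of the 45101 probe sets, and the brightest probe set of a gene, by mean intensity over the 18 arrays, gives its value. All 10 passed the filter on low values (3 or more arrays with an intensity over 18.1, which is the median of the whole table) and are 10 of the 12257 genes tested.

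The cells received R848 with apilimod, R848 with API09, R848 alone, or medium. R848 (resiquimod) is a synthetic agonist of Toll-like receptor 7; its labelled dose of 0.1 mM is high, and the unit may be wrong. Apilimod, an inhibitor of the lipid kinase PIKfyve, and API09, which the series' design text names as its inactive analog, were each given at 1 uM. Each of the 4 arms had 1 array at 1, 3, 7 and 22 h, and medium had 2 further arrays at 0 h. The R848+API09 and the R848 array of an hour are called the R848 controls of that hour when treated as a pair. No label says whether arrays came from separate cultures, so the spread behind the p-values is between arrays and possibly a technical one. Within an hour it comes from the R848 control pairs and the 2 arrays at 0 h. Any effect of API09 therefore counts as spread there. The R848+apilimod and medium arrays of an hour have no replicate and are assumed to vary like the R848 control pairs.

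TGF-beta and BMP ligands bind paired type I and type II receptor kinases at the cell surface, which phosphorylate receptor Smad proteins that enter the nucleus with Smad4. TGF-beta acts mainly through Smad2 and Smad3, and BMPs through Smad1 and Smad5. Both branches induce their own brakes, among them the inhibitory Smads, Skil and Pmepa1. The Id genes are classic BMP targets, and their products bind E proteins and keep them off DNA. In macrophages Id genes and Tgfb1 also respond to other signals, Toll-like receptor ligands included.

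The arrays held RNA of macrophage character: 9 of 10 macrophage markers were above the filter level on all 18 arrays, Mertk being the exception at 7.35 to 12.2. Of the markers of other cell types, 1 of 5 fibroblast, 1 of 3 T cell, 0 of 3 B cell, 2 of 4 epithelial and 1 of 3 endothelial markers were above that level on all arrays. The brightest of them was Epcam, at 42.9 to 61.0. The median intensity of an array was 17.5 to 19.2. At 22 h the upper quartile of R848+apilimod was 101, that of R848+API09 87.0 and that of R848 104, beside 110.5 to 118.6 on the other 15 arrays. The ratio of 3' to 5' actin control probe sets was 1.30, 1.40, 1.19 and 1.26 on the R848+apilimod, R848+API09, R848 and medium arrays at 22 h, and 1.08 to 1.21 on the earlier ones. The part of these array differences in the 22 h results was not tested. In bulk RNA, fewer cells expressing a gene and less of its RNA per cell cannot be told apart.

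In medium alone several of the genes differed widely between hours, and the log2 differences that follow, taken on log2(intensity + 16) against the mean of the 2 arrays at 0 h, are a description with no test. Id1 read 98.1 and 106 on the arrays at 0 h, then 283 at 1 h, 127 at 3 h, 92.9 at 7 h and 18.5 at 22 h. Id2 read 533 and 506 at 0 h, then 1390.3, 412, 421 and 235 at 1, 3, 7 and 22 h. Id3 read 298 and 300.1 at 0 h, then 712, 243, 260.1 and 59.1 at those hours. All 3 Id genes were thus at their highest in medium at 1 h, were within 0.32 log2 units of their starting level at 3 and 7 h and were lowest at 22 h.

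The log2 difference from 0 h at 1 h was 1.34 for Id1, 1.39 for Id2 and 1.21 for Id3. Only 12 genes of the array, 0.0979% of those tested, were higher by at least 1 log2 unit at 1 h, and these 3 were among them. At 22 h the same genes stood 1.77, 1.09 and 2.07 log2 units below 0 h. Id1 at 22 h was close to the filter level, so its difference there is a compressed one. For Id2 the difference at 1 h became 0.76 when its 3 probe sets were averaged.

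Pmepa1 encodes a membrane protein that holds receptor Smads away from the receptor. In medium its intensity was 257 and 238 at 0 h, then 262 at 1 h, 809 at 3 h, 365 at 7 h and 21.8 at 22 h. The peak came at 3 h, later than that of the Id genes, and the 22 h array was near the filter level. Its log2 differences from 0 h were 0.08, 1.65, 0.53 and -2.80 at 1, 3, 7 and 22 h. At 22 h the difference was the largest in size of all 12257 genes in medium, and at 3 h it ranked 4 by size. Averaged over its 3 probe sets the difference at 22 h was -1.58.

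Skil, a nuclear co-repressor that binds Smads, also peaked at 3 h in medium, with 522 and 533 at 0 h, then 736, 929, 609 and 281 at 1, 3, 7 and 22 h. The type I receptor gene Tgfbr1 read 452 and 444 in medium at 0 h, then 528, 871, 488 and 359 at these hours. Tgfb1, the ligand, read 870.2 and 858 in medium at 0 h, then 876, 915, 755 and 465. Skil and Tgfb1 were both lower by 0.87 log2 units at 22 h, while Tgfbr1 was 0.93 log2 units above 0 h at 3 h. For Tgfbr2, Smad6 and Smad7 the largest difference of a later medium array from 0 h was 0.50 (Smad7 at 1 h).

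Of the 10 genes, 3 were higher by at least 1 log2 unit at 1 h, 1 was higher at 3 h (Pmepa1), none passed that mark at 7 h, and 4 were lower at 22 h (Pmepa1, Id1, Id2 and Id3). None was lower at 1 or 3 h or higher at 22 h by that much. Over all genes the share that was higher by that mark was 0.0979% at 1 h, 0.131% at 3 h, 0.0326% at 7 h and 0.71% at 22 h. The share that was lower by it was 0.0245%, 0.0326%, 0.0163% and 0.563% at these hours. The median difference of the 10 genes was 0.35, 0.20, -0.08 and -0.87 at 1, 3, 7 and 22 h, against -0.01, -0.02, 0.00 and 0.01 over all genes. The 2 arrays at 0 h differed from each other by 0.01 to 0.11 log2 units for these genes. The medium course was among the results known when the genes were selected, so these shares describe the choice.

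**Figure D1:**
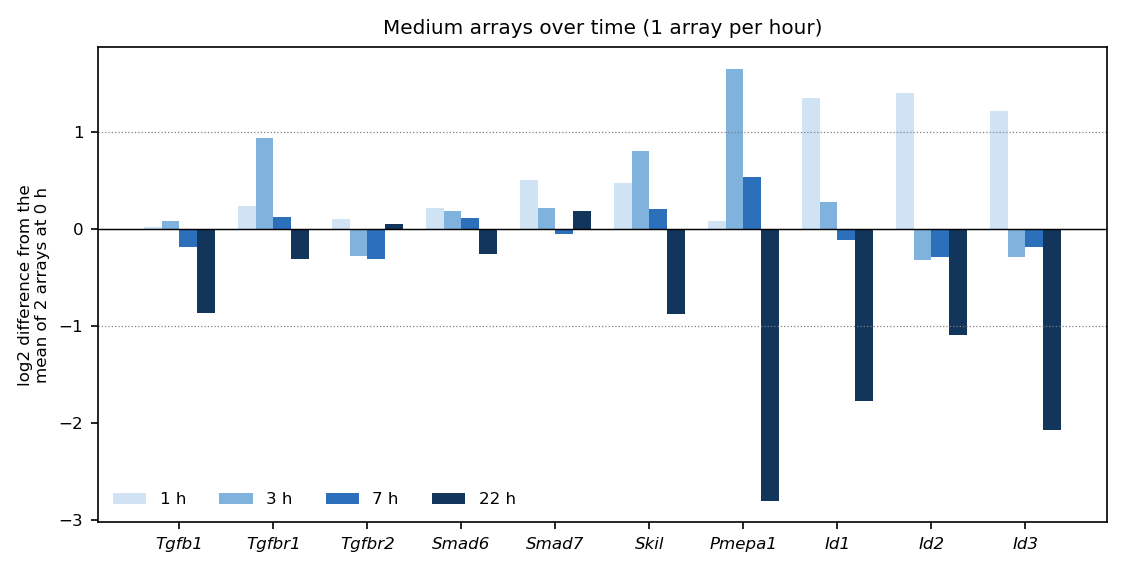
Log2 difference of log2(intensity + 16) on each later medium array from the mean of the 2 arrays at 0 h (vertical axis), by gene (horizontal axis) and hour (shade of the bar), 1 array per bar. The dotted lines mark 1 log2 unit in either direction. The Id genes pass it upward at 1 h, Pmepa1 at 3 h, and these 4 genes pass it downward at 22 h.

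Because medium itself moved, R848 and the compounds were compared within each hour, in a limma fit across all 12257 genes with Benjamini-Hochberg adjustment. Differences are on the log2(intensity + 16) scale with their standard error (SE), which understates the change of dim genes, and a gene was called at an adjusted p under 0.05. The genes are taken in the order ligand, receptors, inhibitors and Id genes.

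Tgfb1 was higher with R848 than in medium of the same hour from 3 h onward. It read 874, 1181, 1140.3 and 696 with R848+apilimod at 1, 3, 7 and 22 h, 845, 1319.6, 1319.6 and 761 with R848+API09, and 909, 1364, 1426 and 836 with R848, beside the medium values given above. From 3 h on all 3 stimulated arrays of an hour lay above the medium array, and the R848+apilimod array was the lowest of the 3. At 22 h all 3 were nevertheless below the 870.2 and 858 of medium at 0 h, and medium read 465. The R848 controls were higher than medium by 0.54 ± 0.10 at 3 h (adjusted p = 0.00253), 0.85 ± 0.10 at 7 h (adjusted p = 5.66e-05) and 0.76 ± 0.10 at 22 h (adjusted p = 0.000105). On a second, dimmer probe set the difference at 22 h was -0.11.

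With apilimod the Tgfb1 difference from the R848 controls was -0.18, -0.26 and -0.19 at 3, 7 and 22 h, each with an SE of 0.10. None was called (adjusted p = 0.379, 0.0881 and 0.151), and the 95% interval at 7 h was -0.48 to -0.05. Whether a call was made at 7 and 22 h depended on the processing. Quantile normalization gave -0.27 at 7 h (adjusted p = 0.0241) and -0.22 at 22 h (adjusted p = 0.0377). At 7 h the difference was also called with probe sets averaged, with trend and robust variances and without the R848+API09 array of 22 h, and at 22 h with median centring (adjusted p = 0.0389) and against R848 alone (adjusted p = 0.041).

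Tgfbr1 moved the other way with R848. Its intensity was 476, 734, 282 and 191 with R848+apilimod at 1, 3, 7 and 22 h, 512, 485, 139 and 110.1 with R848+API09, and 506, 487, 146 and 126 with R848. From 3 h the R848+apilimod array lay between the R848 controls below it and the medium array above it. Against medium, the R848 controls were lower at 3, 7 and 22 h (-0.82, -1.67 and -1.48, SE 0.09, adjusted p = 0.000115, 2.45e-07 and 5.95e-07). Against the R848 controls, R848+apilimod was higher by 0.58 ± 0.09 at 3 h (adjusted p = 0.00181), 0.91 ± 0.09 at 7 h (adjusted p = 3.3e-05) and 0.63 ± 0.09 at 22 h (adjusted p = 0.000422). The R848+apilimod array was below medium at those hours (-0.24, -0.76 and -0.86, not tested). Its 2 dimmer probe sets had the same sign at all called hours.

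Tgfbr2, the type II receptor that binds the ligand first, was also lower with R848, but without the partial return under apilimod. It read 1047, 379, 395 and 338 with R848+apilimod at 1, 3, 7 and 22 h, 1007, 365, 541 and 389 with R848+API09, 1082, 374, 561 and 449 with R848, and 1036, 796, 775 and 1004 in medium. At 3 h the 3 stimulated arrays were within a narrow range well below medium, and at 7 and 22 h the R848+apilimod array was the lowest of the 4. The R848 controls differed from medium by -1.07, -0.48 and -1.23 at 3, 7 and 22 h (SE 0.10, adjusted p = 2.45e-05, 0.00395 and 4.51e-06).

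R848+apilimod lowered Tgfbr2 further, by -0.46 ± 0.10 at 7 h (adjusted p = 0.00694) and by -0.30 ± 0.10 at 22 h (adjusted p = 0.0434), while the difference at 3 h was 0.04 ± 0.10 (adjusted p = 0.924). The call at 22 h was lost without either array at 0 h (adjusted p = 0.0714 each) and with a pseudocount of 1 (adjusted p = 0.0606). That call was also lost with probe sets averaged (-0.23, adjusted p = 0.0785) and against R848+API09 alone (-0.195). In all, 6 of 12 alternatives lost it, the requirement of 1 log2 unit among them. A second, dimmer Tgfbr2 probe set read 193 with R848+apilimod, 209 with R848+API09, 229 with R848 and 188 in medium at 22 h. There its R848 difference was 0.20, of opposite sign to the main probe set's -1.23, and averaging the kept probe sets gave -0.52. At 3 and 7 h the probe sets had the same sign.

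Smad6, an inhibitory Smad that acts mainly on BMP receptors, was dim throughout and above the filter level on 12 of 18 arrays. It read 33.7, 27.8, 19.9 and 22.5 with R848+apilimod, 41.9, 15.1, 10.9 and 16.5 with R848+API09, 31.8, 17.8, 12.6 and 15.5 with R848, and 32.0, 31.0, 28.7 and 18.6 in medium, at 1, 3, 7 and 22 h. At 3 and 7 h the medium array was highest, the R848+apilimod array next and both R848 controls under the filter level. The R848 controls were lower than medium at 3 h (-0.53 ± 0.12, adjusted p = 0.0101) and 7 h (-0.69 ± 0.12, adjusted p = 0.0011). The R848 call at 3 h was lost with median centring (adjusted p = 0.0515) and with R848 as the only control (adjusted p = 0.0689). R848+apilimod was higher than the controls at 3 h (0.43 ± 0.12, adjusted p = 0.0464) and 7 h (0.37 ± 0.12, adjusted p = 0.0499). Both apilimod calls were lost without either array at 0 h (adjusted p = 0.0753 at 3 h and 0.0749 at 7 h) and with no filter. They were also lost with median centring (adjusted p = 0.0797 at 3 h and 0.0818 at 7 h) and with either control array alone. Each was lost in 7 of 12 alternatives, the requirement of 1 log2 unit among them. With a pseudocount of 1 in place of 16 the 4 differences were larger, at -0.88, -1.23, 0.72 and 0.72.

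Smad7, the other inhibitory Smad, was not called at any hour in either comparison. Its intensity ranged from 33.4 to 45.7 with R848+apilimod, 33.4 to 52.8 with R848+API09, 35.5 to 44.7 with R848 and 29.8 to 51.2 in medium, so the arms overlapped. Of its 8 differences the one of largest size was 0.27 ± 0.13 for the R848 controls against medium at 7 h (95% interval -0.01 to 0.55, adjusted p = 0.15). The apilimod difference at 3 h was 0.16 ± 0.13, with an interval of -0.12 to 0.44. A second Smad7 probe set stayed below the filter level on all arrays.

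Skil differed with R848 at 22 h. It read 747, 992, 645 and 119 with R848+apilimod, 774, 1083, 500.3 and 97.3 with R848+API09 and 799.7, 1040.5, 566 and 137 with R848, beside 736, 929, 609 and 281 in medium. All 4 arms peaked at 3 h, and at 22 h the 3 stimulated arrays lay below the medium array. The R848 controls were lower than medium at 22 h by -1.17 ± 0.15 (adjusted p = 9.34e-05). At 1, 3 and 7 h this difference was 0.09, 0.19 and -0.19, with no call. No Skil difference between R848+apilimod and the R848 controls was called: 0.27 ± 0.15 at 7 h (adjusted p = 0.273) and 0.04 ± 0.15 at 22 h (adjusted p = 0.856).

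The second Skil probe set gave another picture at 22 h, with 98.0 on R848+apilimod, 31.8 on R848+API09, 58.9 on R848 and 57.1 on medium. There the 2 R848 controls lay on either side of medium, and R848+apilimod was above both controls. With the probe sets averaged, the R848 difference at 22 h was -0.73 and the apilimod difference was 0.49 (adjusted p = 0.0391).

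Pmepa1 followed the same course in all arms, with a peak at 3 h and a low value at 22 h. It read 261, 558, 244 and 29.8 with R848+apilimod, 262, 778, 417 and 28.2 with R848+API09, 239.6, 862, 451 and 35.4 with R848, and 262, 809, 365 and 21.8 in medium. At 3 and 7 h the R848+apilimod array was the lowest of the 4, medium included. R848+apilimod was lower than the controls by -0.54 ± 0.12 at 3 h (adjusted p = 0.0123) and -0.79 ± 0.12 at 7 h (adjusted p = 0.000526). The call at 3 h was lost when the 3 probe sets were averaged (-0.22, adjusted p = 0.23) and against R848+API09 alone (-0.47, adjusted p = 0.0921); at 7 h averaging gave -0.52. Before 22 h no R848 difference from medium was called: 0.02 ± 0.12 at 3 h (adjusted p = 0.959) and 0.24 ± 0.12 at 7 h (adjusted p = 0.161). Median centring called it at 7 h (0.32, adjusted p = 0.0306). At 22 h, where all 4 arrays were dim, the R848 controls were higher than medium by 0.33 ± 0.12 (adjusted p = 0.0386), a call lost without either array at 0 h (adjusted p = 0.0551) and against R848+API09 alone (adjusted p = 0.099).

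**Figure D2:**
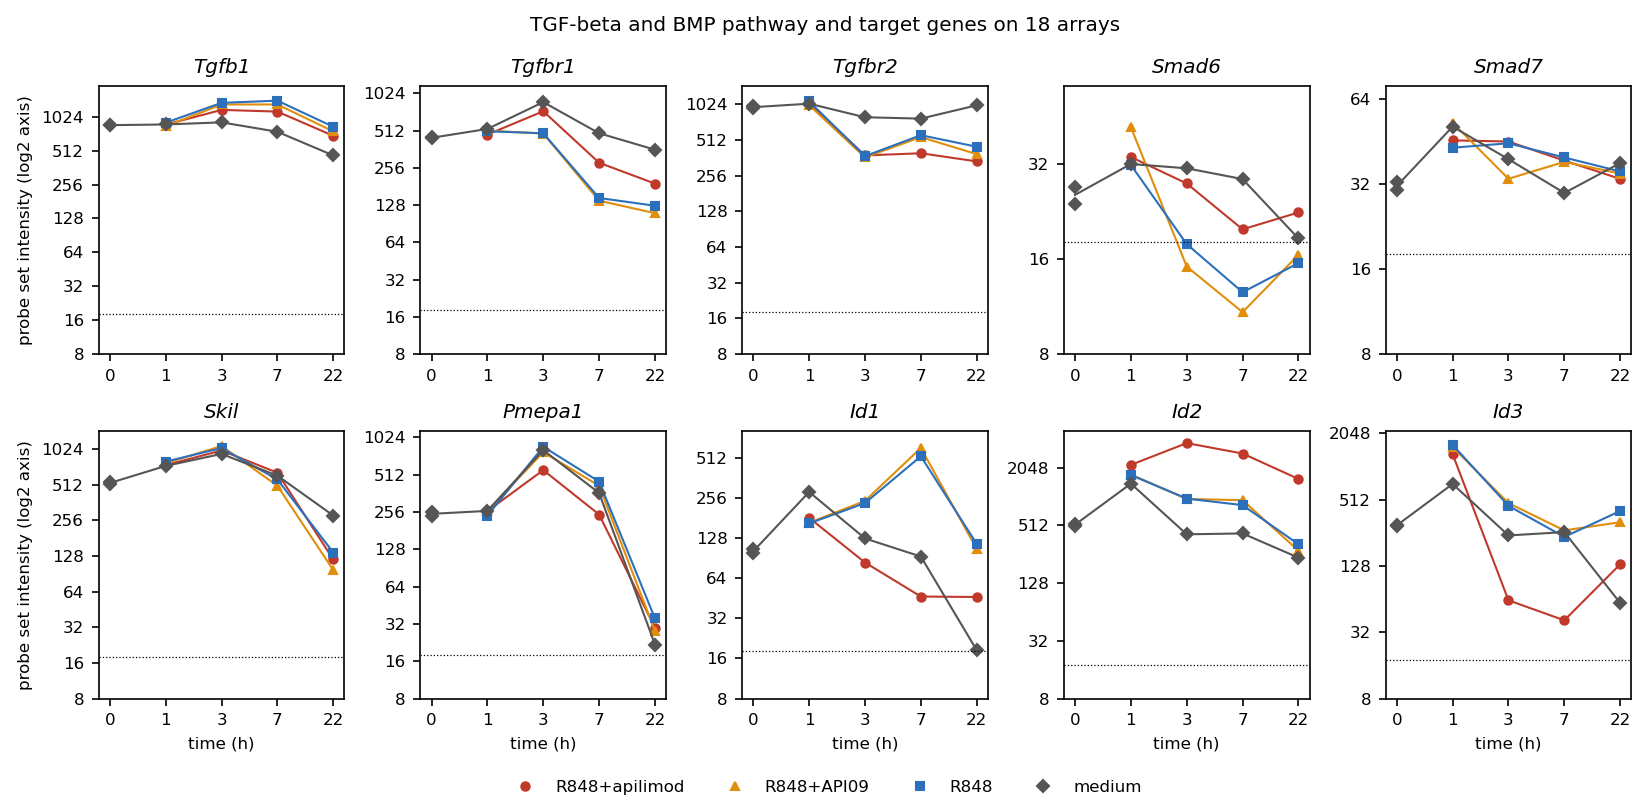
Intensity of each gene's brightest probe set (vertical axis, log2-spaced, with its own upper limit per gene) against time in hours (horizontal axis, evenly spaced), 1 point per array, with lines joining the arrays of an arm. The dotted line marks the filter level of 18.1. Id2 is highest with R848+apilimod at every hour, Id1 and Id3 are far below the R848 controls with R848+apilimod from 3 to 22 h, and Pmepa1 is near the filter level in every arm at 22 h.

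The Id genes carried the largest differences of the set, and apilimod moved them in opposite directions. Id1 read 181, 83.7, 46.5 and 46.2 with R848+apilimod at 1, 3, 7 and 22 h, 166, 243, 605 and 106 with R848+API09, 164, 234, 524 and 116 with R848, and 283, 127, 92.9 and 18.5 in medium. At 1 h the 3 stimulated arrays were all below medium. At 3 and 7 h the R848 controls were above medium and the R848+apilimod array was below it, and at 22 h the R848+apilimod array lay between the controls and medium.

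For Id1 the R848 controls were lower than medium at 1 h (-0.72 ± 0.10, adjusted p = 0.00541). They were higher than medium at 3 h (0.83 ± 0.10, adjusted p = 0.000217), 7 h (2.41 ± 0.10, adjusted p = 2.77e-08) and 22 h (1.88 ± 0.10, adjusted p = 2.4e-07). Medium itself read 98.1 and 106 at 0 h, 283 at 1 h and 18.5 at 22 h. The call at 1 h was lost with R848+API09 as the only control array (-0.71, adjusted p = 0.0517). R848+apilimod was lower than the controls by -1.35 ± 0.10 at 3 h (adjusted p = 8.03e-06), -3.21 ± 0.10 at 7 h (adjusted p = 6.79e-09) and -1.03 ± 0.10 at 22 h (adjusted p = 2.49e-05). The difference at 7 h is a ratio of 0.108 on the intensity + 16 scale. At 1 h it was 0.12 ± 0.10, with no call.

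Id3 took the same direction as Id1 under apilimod. It read 1327, 62.5, 41.1 and 133 with R848+apilimod, 1541, 476, 269.6 and 319 with R848+API09, 1609, 451, 235 and 404 with R848, and 712, 243, 260.1 and 59.1 in medium. At 1 h all stimulated arrays were above medium. At 3 and 7 h the R848+apilimod array was the lowest of the 4, and at 22 h it lay between medium and the controls. The R848 controls were higher than medium at 1 h (1.13 ± 0.13, adjusted p = 0.000862), 3 h (0.89 ± 0.13, adjusted p = 0.000656) and 22 h (2.32 ± 0.13, adjusted p = 2.56e-07). At 7 h the difference was -0.04 ± 0.13 (adjusted p = 0.849). R848+apilimod was lower than the controls by -2.61 ± 0.13 at 3 h (adjusted p = 3.51e-07), -2.23 ± 0.13 at 7 h (adjusted p = 3.52e-07) and -1.34 ± 0.13 at 22 h (adjusted p = 1.76e-05).

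Id2 moved the other way under apilimod. It read 2181, 3679, 2864 and 1558 with R848+apilimod, 1729.6, 963, 934 and 279 with R848+API09, 1711, 971, 831 and 325 with R848, and 1390.3, 412, 421 and 235 in medium. The R848+apilimod array was the highest and the medium array the lowest at all 4 hours. The R848 controls were higher than medium by 1.20 ± 0.11 at 3 h (adjusted p = 1.75e-05), 1.04 ± 0.11 at 7 h (adjusted p = 2.84e-05) and 0.33 ± 0.11 at 22 h (adjusted p = 0.0269). The call at 22 h was lost when the 3 probe sets were averaged (0.21, adjusted p = 0.142) and against R848+API09 alone (0.23, adjusted p = 0.0576).

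On top of that, R848+apilimod was higher than the controls by 1.91 ± 0.11 at 3 h (adjusted p = 9.27e-07), 1.68 ± 0.11 at 7 h (adjusted p = 7.49e-07) and 2.31 ± 0.11 at 22 h (adjusted p = 1.2e-07). These are ratios of 3.76, 3.21 and 4.97. At 1 h the difference was 0.34 ± 0.11 and was not called; no gene of the array was called for apilimod at that hour. Both other Id2 probe sets had the same sign as the main one at every called hour.

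Against medium, where only values and no test are given, the R848+apilimod array stood at -0.60, -0.52, -0.80 and 0.85 log2 units for Id1 at 1, 3, 7 and 22 h. For Id2 the values were 0.64, 3.11, 2.72 and 2.65. For Id3 they were 0.88, -1.72, -2.27 and 0.98. Id1 and Id3 were thus below the medium array of the same hour at 3 and 7 h and above it at 22 h, when medium itself was at its lowest, while Id2 was above it at every hour.

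The stretches around the starts of Id2 and Id3 are shown because these genes moved in opposite directions under apilimod. They are RefSeq sequences of build GRCm38.p6, 250 bases before to 50 bases after the start of the gene, written 5′ to 3′ on the gene's strand. Id2 lies at chr12:25096043-25096342 on the minus strand and Id3 at chr4:136143572-136143871 on the plus strand. Capitals mark CAGAC on either strand, the core letters that Smad3 and Smad4 bind, and GGCGCC, a GC-rich site described for BMP-activated Smads.
Id2: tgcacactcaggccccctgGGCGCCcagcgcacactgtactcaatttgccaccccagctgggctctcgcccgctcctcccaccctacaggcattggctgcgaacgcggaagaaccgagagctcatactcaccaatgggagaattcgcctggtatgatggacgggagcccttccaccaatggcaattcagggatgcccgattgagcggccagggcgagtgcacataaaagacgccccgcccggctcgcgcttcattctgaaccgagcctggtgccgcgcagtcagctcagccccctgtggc
Id3: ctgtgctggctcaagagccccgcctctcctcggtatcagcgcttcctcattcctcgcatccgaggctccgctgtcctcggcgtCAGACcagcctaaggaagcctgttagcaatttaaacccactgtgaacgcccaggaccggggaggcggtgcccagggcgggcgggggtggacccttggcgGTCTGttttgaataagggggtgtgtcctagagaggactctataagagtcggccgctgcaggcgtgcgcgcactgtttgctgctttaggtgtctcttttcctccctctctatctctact
The Id2 stretch held 1 GGCGCC and 0 CAGAC, and the Id3 stretch held 2 CAGAC and 0 GGCGCC. The E-box letters CANNTG, which E proteins bind, occurred in Id2 (1 match) and not in Id3, and TGACG, the core of a cyclic AMP response site, occurred in Id3 (1 match) and not in Id2. Among 32851 promoter windows of the same length in the table, 49.6% held CAGAC, 11.9% GGCGCC, 72.3% CANNTG and 20.8% TGACG on either strand. The 2 marked motifs do not overlap each other here, and a match is a description of letters only. Promoters of 6 of the 10 genes were searched for these letters, and Id1, Pmepa1, Skil and Smad7 are named only. Among the other searched genes, Smad6 and Tgfb1 held neither marked motif, and Tgfbr2 held 1 CAGAC. Tgfbr1 held 1 GGCGCC in 1 window and 1 CAGAC in another. A link between these motifs and the direction under apilimod was not tested.

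Counted over the 10 genes, R848 moved most of them from 3 h onward. The genes were selected with these intensities known, so these counts and those for apilimod describe the choice. The R848 controls were higher than medium for 1 gene and lower for 1 at 1 h, for 4 and 3 at 3 h, for 3 and 3 at 7 h, and for 5 and 3 at 22 h. Over all genes, calls upward made up 0.636%, 6.23%, 11.3% and 16.5% at 1, 3, 7 and 22 h, and calls downward 0.0653%, 9.19%, 18.5% and 29.1%. The median difference of the 10 genes was 0.00, 0.10, 0.10 and 0.13 at the 4 hours, and that of all genes was -0.01, -0.03, -0.04 and -0.03.

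R848+apilimod was higher than the R848 controls for 3 of the 10 genes and lower for 3 at 3 h, for 3 and 4 at 7 h, and for 2 and 3 at 22 h. At 1 h it was called for none, nor for any gene of the array: 0% were called higher and 0% lower, 165 genes had an unadjusted p under 0.05, and the smallest adjusted p was 0.115. Over all genes, calls upward made up 5.07%, 9.81% and 20.2% at 3, 7 and 22 h, and calls downward 4.12%, 9.81% and 14.3%. The median difference of the 10 genes was -0.02, -0.03, -0.14 and -0.05, and that of all genes was 0.00, -0.03, -0.02 and 0.03. The genes called for apilimod at 3 and 7 h in the upward direction were Tgfbr1, Smad6 and Id2. Of these, Smad6 was dim and its calls were lost under several alternatives. Those called downward were Pmepa1, Id1 and Id3 at both hours, with Tgfbr2 at 7 h.

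**Figure D3:**
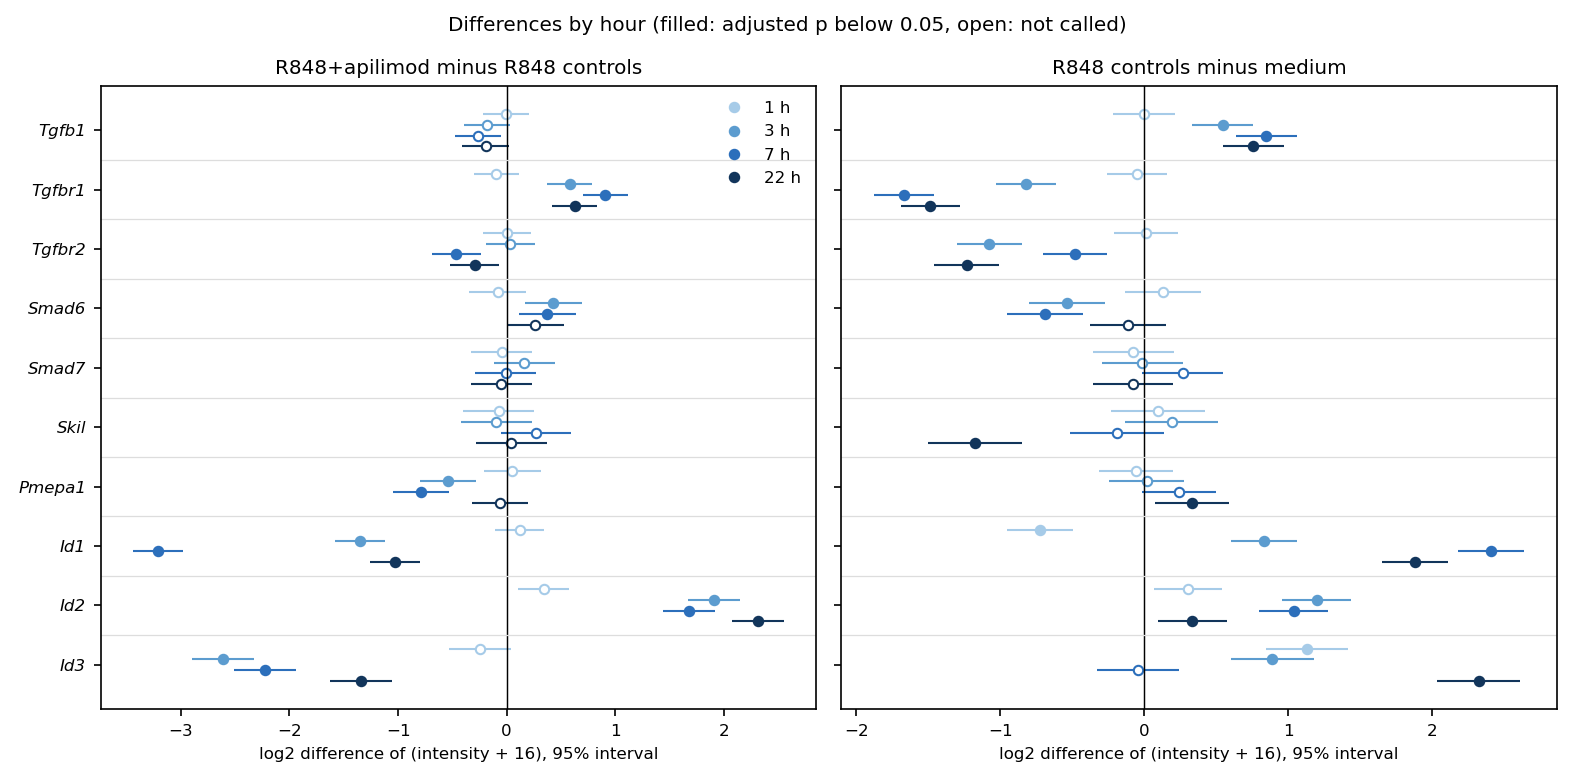
Log2 difference of (intensity + 16) with its 95% interval (horizontal axis) for each gene and hour (rows, shade by hour), for R848+apilimod minus the R848 controls on the left and the R848 controls minus medium on the right. Each is 1 R848+apilimod or 1 medium array against the 2 control arrays of the hour, and filled points have an adjusted p below 0.05. Id1 and Id3 lie left and Id2 right of 0 on the left panel from 3 h onward, with Id1 at 7 h at -3.21.

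Whether a difference changed with the hour was asked in the same limma fit, a test added after the values had been seen. For the R848 controls against medium it changed with the hour for 8 of the 10 genes, against 36.2% of all genes. The exceptions were Pmepa1 (adjusted p = 0.209) and Smad7 (adjusted p = 0.348). For R848+apilimod against the R848 controls it changed for 5 of the 10, namely Pmepa1, Id1, Id2, Id3 and Tgfbr1, against 26.2% of all genes. Tgfbr2 was close to the threshold (adjusted p = 0.0528), and Smad6, Smad7, Skil and Tgfb1 had adjusted p-values of 0.128 to 0.750. The 10 genes were selected with these intensities known, so both counts beside their shares describe the choice.

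A second fit asked for a difference held over all 4 hours, with a term per arm and the hour as a block. Any change of an arm's difference with the hour counts as spread in this fit. For R848 against medium Tgfb1 was called, at 0.59 ± 0.12 (adjusted p = 0.0371, 4 arrays per arm), against 0.995% of all genes in either direction. Tgfbr1 was at -0.98 ± 0.22 (adjusted p = 0.0558). The Tgfb1 call was lost without either array at 0 h (adjusted p = 0.0679) and without the arrays of 3, 7 or 22 h. R848+apilimod gave no call against R848+API09 or against R848 for any of the 10 genes, nor for any gene of the array (0% each, with 1613 and 1588 genes at an unadjusted p under 0.05). Id2 came nearest, at 1.57 ± 0.31 against R848+API09 (adjusted p = 0.123) and 1.56 ± 0.31 against R848 (adjusted p = 0.148). With the arrays of 1 h left out, Id1 was at -1.84 (adjusted p = 0.038), Id2 at 1.96 (adjusted p = 0.000466), Id3 at -2.07 (adjusted p = 0.0461) and Tgfbr1 at 0.66 (adjusted p = 0.0435) for R848+apilimod against R848.

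Apilimod and API09 were given at the same dose and hours, and their 10 differences over the hours are the comparison just given, adjusted over all genes; 3 pairs of R848 arms were compared in all. R848+API09 against R848 gave no call for any of the 10 genes or for any gene of the array (0%, with 182 genes at an unadjusted p under 0.05, none of them among the 10). The intervals do not show that API09 left the genes unchanged: for Id1 the difference was 0.04 ± 0.49 (95% interval -1.03 to 1.11), for Id2 -0.01 ± 0.31 (-0.68 to 0.66) and for Id3 -0.03 ± 0.46 (-1.03 to 0.96). The width of these intervals also holds changes of the other arms with the hour, so it is not the spread between R848+API09 and R848 alone. At 1, 3, 7 and 22 h R848+API09 minus R848 was 0.01, 0.05, 0.20 and -0.11 for Id1. For Id2 it was 0.02, -0.01, 0.17 and -0.21, and for Id3 -0.06, 0.08, 0.19 and -0.32. Hour by hour the R848+API09 and R848 arrays differed by a median size of 0.08, 0.05, 0.11 and 0.19 log2 units over the 10 genes, close to 0.07, 0.07, 0.08 and 0.17 over all genes. The largest single gap at each hour was 0.28 (Smad6, 1 h), 0.30 (Smad7, 3 h), 0.20 (Id1, 7 h) and 0.43 (Skil, 22 h).

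The wider pathway was read from lists of genes chosen by role, of which the members are part. At 3, 7 and 22 h the share of all genes called was 6.23%, 11.3% and 16.5% upward and 9.19%, 18.5% and 29.1% downward for R848, and 5.07%, 9.81% and 20.2% upward and 4.12%, 9.81% and 14.3% downward for apilimod. Each list's counts stand beside these shares, and with so few genes none is read as particular to its list. Among 6 measured ligands of 12 listed, Tgfb1 was the one gene called, higher with R848 at 3, 7 and 22 h, and none was called for apilimod. Among 10 receptors of 12 listed, R848 raised 1, 3 and 4 and lowered 4, 4 and 4 at 3, 7 and 22 h, and apilimod raised 2, 2 and 1 and lowered 2, 4 and 1 (all genes at 22 h: 16.5% and 29.1% for R848, 20.2% and 14.3% for apilimod). Acvrl1, a type I receptor for BMP9, had differences of opposite sign to those of Tgfbr1 at 3, 7 and 22 h for R848 and at 3 and 7 h for apilimod. It read 49.0, 38.9, 42.9 and 172 with R848+apilimod at 1, 3, 7 and 22 h, 46.4, 107, 125 and 128 with R848+API09, 52.4, 97.4, 109 and 178 with R848, and 50.9, 46.3, 49.9 and 68.0 in medium. R848+apilimod was near medium at 3 and 7 h and among the controls at 22 h. Its apilimod difference was -1.11 ± 0.16 at 3 h (adjusted p = 0.000919) and -1.17 ± 0.16 at 7 h (adjusted p = 0.000318), while at 22 h it was 0.17 ± 0.16, of the same sign as for Tgfbr1, with no call.

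Of the 5 measured signal-transducing Smads of 6 listed, R848 lowered 0, 1 and 1 and apilimod 0, 0 and 2 at 3, 7 and 22 h, and none was raised. For R848 this is near or under the downward share of all genes, 18.5% at 7 h and 29.1% at 22 h. For apilimod the 2 of 5 at 22 h are above the downward share of 14.3%. Smad3 was lower with R848 at 7 h (-0.81 ± 0.20, adjusted p = 0.0104). At that hour Smad3 read 36.9 with R848+apilimod, 30.5 with R848+API09, 58.2 with R848 and 87.0 in medium, so the control arrays lay apart. Smad5 was lower with R848 at 22 h (-0.67 ± 0.13) and lower again with apilimod (-0.39 ± 0.13), and Smad2 was lower with apilimod at 22 h (-0.32 ± 0.10). All 14 listed inhibitors of Smads and receptors were measured, 4 of these being Smad6, Smad7, Skil and Pmepa1. Apilimod raised 4 and lowered 2 at each of 3, 7 and 22 h, and R848 lowered 2, 3 and 3 and raised 0, 0 and 3. At 22 h these counts are near the shares of all genes for apilimod (20.2% and 14.3%) and, for R848, near the upward share of 16.5% and under the downward share of 29.1%. At 3 and 7 h the shares for apilimod were 5.07% and 9.81% upward and 4.12% and 9.81% downward. Those for R848 were 6.23% and 11.3% upward and 9.19% and 18.5% downward. Tgif1, a Smad co-repressor, was higher with apilimod by 1.39 ± 0.13 at 3 h, 0.77 ± 0.13 at 7 h and 1.25 ± 0.13 at 22 h. Nedd4l, a ubiquitin ligase for activated Smad2 and Smad3, was higher with apilimod by 1.51 ± 0.15 at 3 h and 0.77 ± 0.15 at 7 h, while the R848 controls were lower than medium by -0.76 ± 0.15 at 7 h.

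Among 8 measured genes of 17 for ligand latency, activation and extracellular inhibition, R848 raised 2, 2 and 4 and lowered 0, 1 and 1 at 3, 7 and 22 h, and apilimod raised 1, 0 and 0 and lowered 0, 1 and 2, against 11.3% up and 18.5% down for R848 and 9.81% each way for apilimod over all genes at 7 h. Furin, the protease that cleaves the TGF-beta precursor, was higher with R848 by 0.66 ± 0.10 at 3 h, 2.33 ± 0.10 at 7 h and 1.56 ± 0.10 at 22 h. Apilimod raised it further at 3 h (0.81 ± 0.10) and lowered it at 22 h (-0.36 ± 0.10). Nrros, which anchors latent TGF-beta on microglia and other myeloid cells, was lower with R848 at 22 h (-1.28 ± 0.09), and Twsg1, an extracellular BMP-binding protein, at 7 h (-1.04 ± 0.14).

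Among 6 measured further TGF-beta targets of 16 listed, apilimod raised 1 at each of 3, 7 and 22 h and lowered 2, 3 and 1, and R848 raised 1, 3, 1 and 3 and lowered 0, 1, 2 and 2 at 1, 3, 7 and 22 h. Over all genes at 7 h apilimod raised 9.81% and lowered 9.81%, and R848 raised 11.3% and lowered 18.5%. Bhlhe40, a transcriptional repressor, was the one raised by apilimod. It read 538, 1329, 837 and 397 with R848+apilimod at 1, 3, 7 and 22 h, 476, 351, 187 and 201 with R848+API09, 439, 353, 166 and 231 with R848, and 419.8, 255, 286 and 292 in medium. R848+apilimod was the highest array at every hour, as for Id2. The differences were 1.87 ± 0.11 at 3 h, 2.15 ± 0.11 at 7 h and 0.84 ± 0.11 at 22 h. Klf10, a TGF-beta-inducible repressor, was lower with R848 at 3, 7 and 22 h (-1.06, -1.13 and -0.98, SE 0.16) and lower again with apilimod at 7 and 22 h (-0.81 and -0.65). Junb, a subunit of AP-1, was higher with R848 at all 4 hours (1.40, 1.41, 1.22 and 0.46, SE 0.16) and lower with apilimod at 3 and 7 h (-0.65 at both).

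Of 5 measured further BMP targets of 8 listed, 1 was called for apilimod, Msx1 at 22 h (0.37 ± 0.10). R848 lowered 1 of them, Tob1, at 3, 7 and 22 h (-0.74, -0.55 and -1.22, SE 0.09) and raised 1, Sp7, at 22 h (0.38 ± 0.11). At 22 h apilimod raised 20.2% of all genes, and R848 raised 16.5% and lowered 29.1%. Msx1 and Sp7 were dim. At 22 h Msx1 read 54.1 with R848+apilimod, 34.4 with R848+API09, 42.3 with R848 and 32.2 in medium. Sp7 read 52.7, 58.2, 57.8 and 40.9 on the same arrays. The 3 E proteins that Id proteins bind were all measured. Tcf12 was lower with R848 at 3, 7 and 22 h (-0.97, -0.63 and -0.50, SE 0.09), and Tcf3 at 7 h (-0.37 ± 0.11). Tcf4 was lower with apilimod at 3 and 7 h (-0.48 and -0.72, SE 0.13), and Tcf3 was lower with apilimod at 7 and 22 h (-0.43 and -0.65, SE 0.11). Tcf12 was higher with apilimod at 22 h (0.32 ± 0.09).

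The courses of the 10 genes over the 18 arrays varied in likeness. Pearson's r on the log2 scale was 0.91 between Pmepa1 and Skil, 0.53 between Id1 and Id3, 0.16 between Id1 and Id2, 0.09 between Id2 and Id3 and -0.43 between Tgfb1 and Tgfbr2. These are descriptions over arrays that share hours and arms. Of all genes, the one most like Pmepa1 was Itgav, the integrin chain that takes part in activating latent TGF-beta (r = 0.98), and for Skil it was AI506816 (r = 0.98). For Id1 it was Cd14, a co-receptor of Toll-like receptors (r = 0.94), for Id2 the phosphatase Dusp4 (r = 0.94) and for Id3 the growth-arrest gene Gadd45g (r = 0.85). For Tgfb1 it was Plaur, the urokinase receptor (r = 0.97), for Tgfbr1 Pip5k1c (r = 0.96), for Tgfbr2 C130050O18Rik (r = 0.97), for Smad6 Kat6b (r = 0.90) and for Smad7 Mir142 (r = 0.66). The second in rank was Myo19 for Pmepa1 (0.95), Flna for Id1 (0.87), Mafk for Id2 (0.89), Klf2 for Id3 (0.83), Afdn for Smad6 (0.88), Klhl15 for Smad7 (0.65), Alg13 for Skil (0.98), Sash1 for Tgfb1 (0.95), Plau for Tgfbr1 (0.96) and Phf8 for Tgfbr2 (0.96).

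The other probe sets served as a check for 6 of the genes, with 9 further probe sets above the filter. At the hours where the main probe set was called, 35 of 39 of their differences had its sign. The 4 that did not belonged to 1 probe set each of Pmepa1 (R848 at 22 h and apilimod at 3 h), Tgfb1 (R848 at 22 h) and Tgfbr2 (R848 at 22 h). Those of Pmepa1 and Tgfb1 are dim, with mean intensities of 22.6 and 24.3. For Tgfb1 at 22 h, averaging both probe sets gave an R848 difference of 0.32 in place of 0.76. Id1, Id3, Smad6 and Smad7 had no second probe set above the filter.

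**Figure D4:**
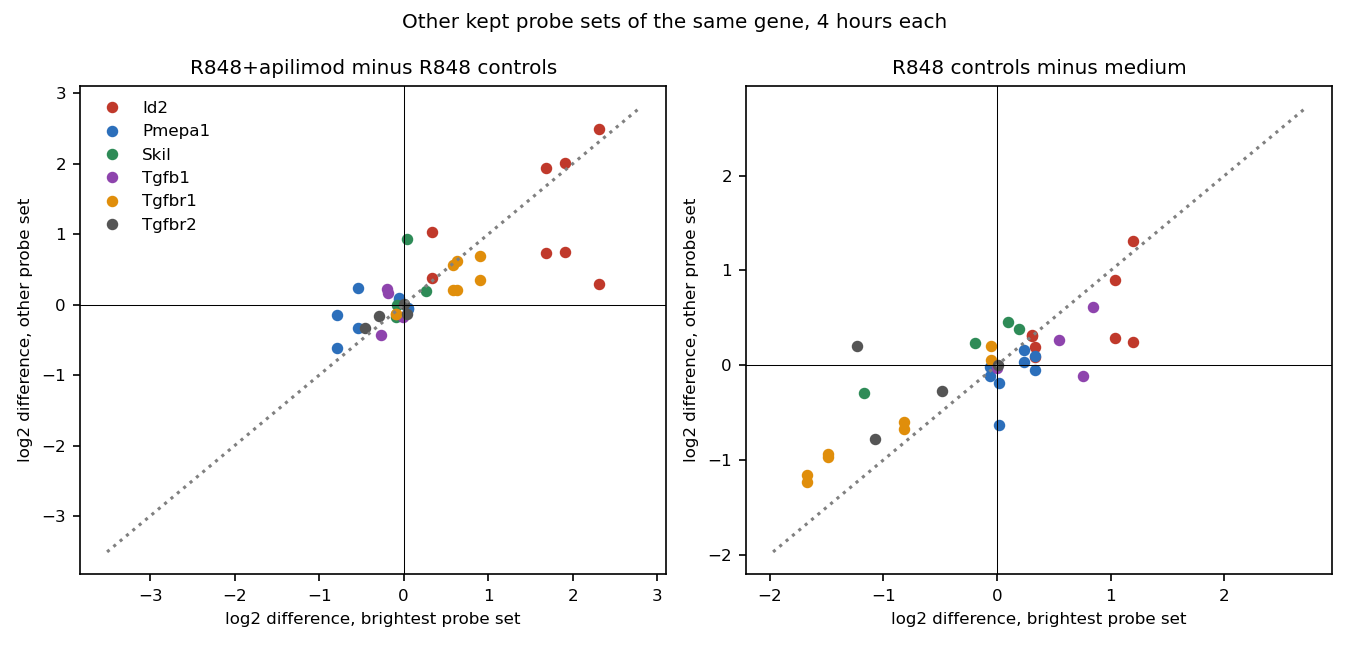
Log2 difference of each further probe set (vertical axis) against that of the gene's brightest probe set (horizontal axis), 1 point per probe set and hour, for R848+apilimod minus the R848 controls on the left and the R848 controls minus medium on the right. The dotted line marks equal differences. Points of Id2 and Tgfbr1 keep the sign of the brightest probe set at called hours, and 1 Tgfbr2 point at 22 h lies above 0 against -1.23 on the right panel.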

How the data were processed

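Per the labels' protocols, RNA from the RAW cells was amplified (NuGEN Ovation V2) before hybridisation to 1-colour Affymetrix arrays. Every deposited value is a linear intensity of 1 probe set on 1 array. The values were taken to be already normalized by the authors because the median intensity was 17.5 to 19.2 on all arrays, but the method is not given in the sources used here. Per the submitters' processing notes limma was used, with no version.

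Probe sets were named through the platform annotation: 34958 had 1 gene symbol and 932 several, and the latter were left out. Probe sets over 18.1 (the median of the whole table) on 3 or more arrays were kept, the one with the highest mean stood for the gene, and log2(intensity + 16) was fitted with limma 3.58.1 in R 4.3.3 (lmFit and eBayes, two-sided, Benjamini-Hochberg over 12257 genes, adjusted p under 0.05). Within hours, the R848+API09 and R848 arrays of each hour were given 1 mean, leaving 5 residual degrees of freedom and a median SE of 0.110; over hours, arm and hour terms left 10 and a median SE of 0.103. The number of arrays limits the precision. The fits were tested on simulated data. The text names all 10 genes, up to 3 called genes of each list with the largest difference, and the 2 genes most correlated with each. Genes and lists were chosen with earlier results of these data known. Alternatives changed the scaling, filter, pseudocount, probe sets, variances, control arm and arrays used.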

Additional observations from a re-analysis of the deposited data

Results flagged for a closer look

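These results are listed because a gene's difference was not the same at 1, 3, 7 and 22 h, by limma's F test over the 4 hours. The test was added after the values had been seen. Of all genes, 36.2% passed it for the R848 controls against medium and 26.2% for R848+apilimod against the R848 controls.

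For the R848 controls against medium, the adjusted p was 4.96e-07 for Id1, whose difference was negative at 1 h and positive later. It was 0.00135 for Id2, 3.1e-05 for Id3, 0.00889 for Smad6, 0.00154 for Skil, 0.00242 for Tgfb1, 2.36e-05 for Tgfbr1 and 0.000224 for Tgfbr2. Of these genes, Tgfbr1, Tgfbr2 and Tgfb1 differed by at most 0.05 log2 units at 1 h and by 0.48 to 1.67 in size at 3 to 22 h. Id3 differed by 1.13 at 1 h, -0.04 at 7 h and 2.32 at 22 h.

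For R848+apilimod against the R848 controls, the adjusted p was 0.0077 for Pmepa1, 7.58e-07 for Id1, 2.16e-05 for Id2, 1.82e-05 for Id3 and 0.00115 for Tgfbr1. All 5 lay between -0.24 and 0.34 at 1 h. Id1 was farthest from the controls at 7 h (-3.21), Id3 at 3 h (-2.61) and Id2 at 22 h (2.31).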

How the results depend on the processing

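Of the 42 called values of the 10 genes, none changed sign in any of 530 alternative values. Of these, 472 stayed past the threshold and 58 did not. Alternatives that altered only the filter, variances, threshold or 0 h arrays left the difference as it was, so its sign could not change. Requiring 1 log2 unit removed every smaller call by construction. The 20 of the 42 that stayed past the threshold under every alternative run are therefore all of at least 1 log2 unit. Among them were Id1, Id2 and Id3 for apilimod at 3, 7 and 22 h. Of 78 values not called, alternatives called 27 times. With a log2 difference of at least 1 also required, the R848 calls numbered 1, 2, 3 and 5 at 1, 3, 7 and 22 h in place of 2, 7, 6 and 8, and the apilimod calls 3, 3 and 3 at 3, 7 and 22 h in place of 6, 7 and 5. With R848+API09 as the only control, 1 gene was called for R848 at 1 h. The count of the 10 genes called for R848 against medium over the hours, 1 as given, was 2 under quantile normalization, median centring or a filter at the 75th percentile. It was 0 with no filter, with probe sets averaged, without either array at 0 h (0 to 0) and with 1 log2 unit required. It was 6 with the 1 h arrays left out and 0 with those of 3, 7 or 22 h left out. With the 1 h arrays left out, 4 genes were called over the hours for apilimod against R848+API09 and 4 against R848, in place of 0 and 0.

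Centring raised all genes on the R848+API09 array at 22 h by a median of 0.26 log2 units and quantile normalization by 0.17, and centring raised the R848+apilimod array of that hour by 0.10. With centring, the R848 differences at 22 h were 0.56 for Id2 and 0.56 for Pmepa1, against 0.33 and 0.33. The cause of the lost and gained calls was not tested. No paired analysis by replicate number was possible because the medium arrays at 0 h are the only ones that carry such numbers; the fit over hours had the hour as its block. Dim genes (Smad6, Smad7, and Id1 and Pmepa1 in medium at 22 h) give differences that the added 16 compresses.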

Other observations

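Some of the other genes past 1 log2 unit in medium are given here, chosen after their values were seen. At 1 h the 9 others that were higher than at 0 h were Cxcl2 (2.72), Pim1 (1.39), Cd83 (1.36), Dusp1 (1.22), Dusp5 (1.21), Nfkbiz (1.19), Gpr137b (1.17), Gadd45g (1.06) and Zfand2a (1.06). At 3 h Neat1 (2.20), Olr1 (1.85), Ptgs2 (1.36) and Myc (1.34) were higher beside Pmepa1, as the 4 of largest difference among 15 others. Among genes lower by that much, Adm, which encodes adrenomedullin, was lower at 1 h (-1.13) and at 3 h (-1.75). These are single medium arrays against the mean of 2, with no test.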
